A study of Mus musculus with 8 samples.

Results

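Ifi27l2a, a small interferon-induced gene of the mouse ISG12 family, was described across the cell classes of the liver in control and β-glucan (BG)-treated mice. It was 1 of the 32285 genes listed in the libraries. It was chosen by its BG-to-control fold changes, as the gene called higher in the most cell classes in earlier results of the same data, so its BG-to-control differences are given as a description and without a test. Each of the 8 single-cell RNA sequencing (scRNAseq) libraries came from the liver of 1 mouse, a C57BL/6J female 9 weeks old. The 4 control mice (replicates 1 to 4) were compared with 4 mice (replicates 5 to 8) whose livers were taken on day 2 after 1.2 mg of BG (Imprime PGG, also called odetiglucan) was given intravenously. BG is a yeast-derived glucose polymer, given to ask how liver macrophages and T cells respond. Selected CD45+ cells were sequenced together with gradient-purified cells of the flow-through, so the share of a cell type in a library also reflects these steps. Dose and time were each single, and no group received an interferon or an interferon-blocking agent.

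Genes of the ISG12 family encode small hydrophobic proteins of intracellular membranes, and they are among the genes switched on when cells sense type I interferon. Interferon-α and -β bind the receptor pair Ifnar1 and Ifnar2, the kinases Jak1 and Tyk2 are activated, and transcription factors such as Stat2 and Irf9 then bind the interferon-stimulated response element in the promoters of induced genes. Irf7 is itself induced and drives further interferon production. In the liver, such genes respond in resident macrophages (Kupffer cells, KCs) as well as in lymphocytes and endothelial cells.

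In GRCm38 (the assembly also called mm10), the GENCODE annotation places Ifi27l2a (ENSMUSG00000079017) on the minus strand at chr12:103442167-103443680, with 4 exons. Its relatives flank it. Ifi27 lies at chr12:103434211-103440239 on the plus strand and Ifi27l2b at chr12:103450898-103457223 on the minus strand. Of the 433 different 31-base words in the annotated Ifi27l2a transcripts, 0 occurred in a transcript of Ifi27 and 26 in one of Ifi27l2b. Ifi27l2b was itself nearly undetected, with 44 UMIs in all control cells and 64 in all BG cells, against 25026 and 89595 for Ifi27l2a.

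A unique molecular identifier (UMI) marks 1 captured RNA molecule, and levels below are counts of the gene per 1000000 UMIs of a class (CPM), summed over its cells in a mouse. The libraries held 39612380 to 60654583 UMIs, of which 12499993 to 21529646 remained in the 48465 cells with 200 to 2500 genes and at most 30% mitochondrial UMIs. Marker gates placed 33275 of these cells in 16 classes that had at least 3 mice per group with 10 cells each. No doublet caller was run, and 7895 cells, including those with markers of a second lineage, were left unassigned. Pairs of libraries shared 5 to 26 cell barcodes. BG replicate 5 stood apart, with 66.6% mitochondrial UMIs and a median of 34 genes over its 27873 barcodes, where the others had 30.5% to 41.9% mitochondrial UMIs and medians of 685 to 1133 genes. Nothing beyond the titles describes separate cultures or batches, and the 8 mice are the replicates.

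Across all kept cells, Ifi27l2a stood at 287, 419, 269.6 and 298 CPM in the control mice and 1459, 1094, 1665 and 1103 in the BG-treated mice. The lowest BG-treated mouse was above the highest control mouse. Means were 318 ± 67.8 (SD, n = 4) and 1330.0 ± 281 (SD, n = 4), a log2 fold change of 2.08 ± 0.20 (SE). The share of cells with at least 1 UMI of the gene was 32.7% to 39.3% in control libraries and 60.6% to 73.1% in BG libraries. Barcodes that were not kept moved in the same direction. In those with fewer than 200 genes, Ifi27l2a stood at 65.9 to 283 CPM of non-mitochondrial UMIs in control libraries and 509 to 1086 in BG libraries, below the 324 to 499.7 and 1266 to 2020 of the kept cells. What these barcodes hold and the part of free RNA in the class levels were not tested.

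In all 14 classes in which Ifi27l2a had enough counts to be fitted, every BG-treated mouse was above every control mouse, and log2 fold changes ran from 1.18 in KCs to 3.73 in neutrophils, with a median of 1.99. By the call used for other genes (adjusted p under 0.05 and a log2 fold change over 0.5), it passed in 14 of 14 classes, the count on which the gene was chosen. In the remaining classes, conventional NK and bile duct cells, too few UMIs were present for a fit, and there the groups overlapped. The 14 of 14 thus holds only for classes that passed the filter on counts. ILC1-like cells passed it through the BG-treated mice, with 17 to 23 UMIs in each against 1 to 8 in a control mouse. Neutrophils, too, passed it mainly through the BG-treated mice, with 82 to 197 UMIs in each against 5 to 24 in a control mouse. The plot of levels in each mouse shows both the shared direction and the wide range of starting levels.

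**Figure D1:**
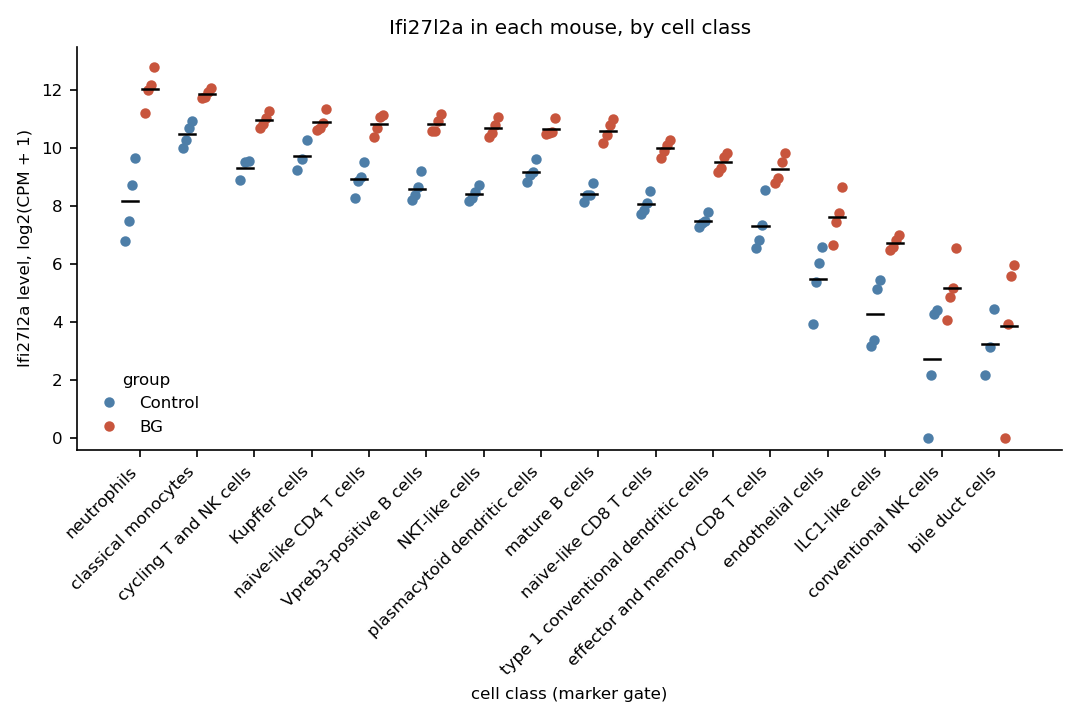
Level of Ifi27l2a in each mouse, as log2(CPM + 1), in 16 cell classes ordered by the mean of the BG-treated mice. Points are mice with at least 10 cells in the class, bars are means, and in 14 of the 16 classes the control (blue) and BG (red) points do not overlap.

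The genes next to it in breadth were Bst2 (tetherin, which holds budding virus at the cell surface), called higher in 11 of the 15 classes where it was tested, Isg15 (a ubiquitin-like modifier, 10 of 14) and Ly6a (the surface antigen Sca-1, 10 of 13). Rtp4 (a chaperone of G protein-coupled receptors, 9 of 11) and Irf7 (9 of 13) followed. Of the genes tested in any class, 11590 were called higher in none and 260 in 1. The mean log2 fold change over the classes tested was 2.03 for Ifi27l2a, 1.23 for Bst2, 1.56 for Isg15, 1.49 for Ly6a, 1.87 for Rtp4 and 1.51 for Irf7. Ly6a reached its highest value in KCs, where it rose more than Ifi27l2a did (log2 fold change 3.29 ± 0.30, adjusted p = 1.54e-08, edgeR's quasi-likelihood test). Rtp4 rose most in Vpreb3-positive B cells (3.54 ± 0.33, adjusted p = 5.82e-09).

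The promoters of these broadly induced genes and of the genes named further below, by likeness or position, were searched for GAAANNGAAA. These are the letters at the core of the interferon-stimulated response element. Both strands were searched, with overlapping matches allowed. RefSeq windows from 250 bases before to 50 bases after the start (GRCm38.p6) were used, and 1131 of all 32851 windows (3.44%) held the letters. Of the 47 listed type I interferon-induced genes, 36 had a window and 20 of these windows held the letters. Of the named genes, 16 of 26 had a window and 3 windows held them, those of Bst2, Isg15 and the cysteine protease gene Ctss. Ctss is not on the interferon list and was named for its likeness to Ifi27l2a in level. Ifi27l2a, Ly6a and Rtp4 have no entry in the table. The stretches are shown because they carry the searched letters, with capitals marking the matched bases, joined where matches overlap.
Bst2: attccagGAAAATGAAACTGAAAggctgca
Isg15: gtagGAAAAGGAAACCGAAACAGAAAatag
Ctss: gtctttaaatGAAACCGAAAtgaaagttca
The Bst2 stretch lies at chr8:71537580-71537609 on the minus strand and holds 2 overlapping matches that begin 130 bases before the start. The Isg15 stretch lies at chr4:156200871-156200900 on the minus strand and holds 3, beginning 78 bases before the start. The Ctss stretch lies at chr3:95526755-95526784 on the plus strand, with 1 match that begins 21 bases before the start. The window of Irf7 did not hold these letters. A match describes letters only.

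KCs, the resident macrophages of the liver, had the smallest log2 fold change of the 14 classes by the gates used here, with 3 control mice. With a relaxed gate, added after the cell numbers were seen, which gives each cell to its best lineage and let all 8 mice enter, the control mean was 584 CPM and the log2 fold change 1.60 ± 0.18 (SE), above that of classical monocytes by the same gate (1.37 ± 0.14). Replicates 2, 3 and 4 of the control mice held 1237, 802 and 605 CPM, and the BG-treated mice 1603, 1899, 2626 and 1659. Control replicate 1 had only 6 KCs and did not enter. The groups did not overlap, as for 5.62% of the 1941 genes tested in this class. Means were 881 ± 323 (SD, n = 3) and 1947 ± 471 (SD, n = 4), a log2 fold change of 1.18 ± 0.24 (SE). Among other type I interferon-induced genes, 2 of 28 tested were called higher, against 0.412% of all genes, with a median log2 fold change of 0.48 where that of all genes was 0.02. They were Bst2 (log2 fold change 1.09 ± 0.25, adjusted p = 0.0286) and Irf7 (log2 fold change 0.96 ± 0.24, adjusted p = 0.0395). The count was 0 without control replicate 3 or 4 or BG replicate 5 or 7, 1 without BG replicate 8 and 4 without control replicate 2. Without BG replicate 5, Ifi27l2a stood at 1.24 ± 0.27. T and NK cell markers summed to 197 to 382 CPM in control and 310.1 to 761 in BG mice, and their part in the result was not tested.

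Classical monocytes, which include the monocyte-derived macrophages of the liver, held the most Ifi27l2a in control mice among the 16 classes with enough mice. Levels were 1676, 1954, 1035 and 1259 CPM in the control mice and 3455, 3498, 4299 and 3968 in the BG-treated mice. The mice of the groups did not overlap, as for 3.17% of the 3031 genes tested. Means were 1481 ± 412 (SD, n = 4) and 3805 ± 403 (SD, n = 4), a log2 fold change of 1.35 ± 0.17 (SE) and an absolute gain of 2324 CPM. After every cell was thinned to 1500 UMIs, 65.8% ± 10.8 (SD) of control and 85.3% ± 7.57 of BG monocytes had a UMI of it. Of the other interferon-induced genes, 6 of 34 were called higher against 0.495% of all genes, with median 0.94 against -0.01. Ifit3, which encodes a binder of viral RNA, led them (log2 fold change 1.98 ± 0.28, adjusted p = 0.0112), followed by Rtp4 (log2 fold change 1.79 ± 0.30, adjusted p = 0.0259) and Oas3, an activator of RNase L (log2 fold change 1.61 ± 0.25, adjusted p = 0.0167). This count was 0 without control replicate 4 or BG replicate 7, 1 without control replicate 2 or 3 or BG replicate 5 and 2 without BG replicate 8. Without BG replicate 5, Ifi27l2a stood at 1.37 ± 0.19. Hepatocyte transcripts varied widely in the class, from 1021 to 25350.5 CPM in control and 290.0 to 14553 in BG mice, and their part was not tested.

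Neutrophils had the largest fold change. Their control levels were uneven, with 111, 805, 178 and 420.1 CPM in the control mice and 4662, 7234, 4160.0 and 2406 in the BG-treated mice. The lowest BG-treated mouse was well above the highest control mouse, and groups did not overlap, as for 2.89% of the 346 genes tested. Means were 378 ± 314 (SD, n = 4) and 4615 ± 1995 (SD, n = 4), a log2 fold change of 3.73 ± 0.42 (SE). These sums rest on 11 to 28 cells per mouse and 5 to 24 Ifi27l2a UMIs per control mouse. Ifi27l2a thus passed the filter on counts mainly through the BG-treated mice here. A mean of 21.8% of control neutrophils had a UMI, against 79.2% of BG neutrophils. All 6 of 6 other interferon-induced genes tested were called higher, against 3.47% of all genes, with median 2.41 against -0.02. Slfn5 (log2 fold change 3.15 ± 0.55, adjusted p = 0.000608), Rsad2, the antiviral enzyme viperin (log2 fold change 2.84 ± 0.42, adjusted p = 0.000105), and Ifi204, a DNA sensor (log2 fold change 2.51 ± 0.42, adjusted p = 0.000355), led them. Control means of Slfn5, Rsad2 and Ifi204 were 77.2, 125 and 83.1 CPM, against 739, 876 and 423 in BG-treated mice. They passed the filter on counts mainly through the BG-treated mice, so the share called follows in part from that filter. Without 1 mouse the count of genes called ran from 5 to 11. It was 10 without control replicate 3 and 11 without control replicate 2 or 4 or BG replicate 8, where more listed genes were tested. Markers of classical monocytes summed to 129.9 to 676 CPM in control and 152 to 2492 in BG mice, and their part in the result was not tested.

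Plasmacytoid dendritic cells (pDCs), the classical producers of type I interferon, and type 1 conventional dendritic cells (cDC1s), which cross-present antigen, differed in starting level. pDCs held 579, 793, 537 and 459 CPM in the control mice and 1465, 1515, 2110.0 and 1438 in the BG-treated mice. The groups did not overlap, as for 1.65% of the 5884 genes tested, and the log2 fold change was 1.52 ± 0.13 (SE) between means of 592 ± 143 (SD, n = 4) and 1632 ± 320.2 (SD, n = 4). In pDCs, 13 of 28 other interferon-induced genes were called higher (all genes, 0.578%), with median 0.75 against -0.01, led by Slfn5 (log2 fold change 1.97 ± 0.23, adjusted p = 3.33e-07), Oasl2, a member of the oligoadenylate synthetase family (log2 fold change 1.91 ± 0.27, adjusted p = 2.48e-05), and Xaf1, a partner of apoptosis inhibitors (log2 fold change 1.65 ± 0.30, adjusted p = 0.00105). cDC1s held 177, 170.4, 221 and 155 CPM in the control mice and 842, 640.4, 920.1 and 587 in the BG-treated mice. Every BG-treated mouse was again above every control mouse, as for 2.12% of the 1883 genes tested, with means of 181 ± 28.2 (SD, n = 4) and 747 ± 159 (SD, n = 4) and a log2 fold change of 2.04 ± 0.20 (SE). Of the other interferon-induced genes in cDC1s, 1 of 14 was called higher (all genes, 0.159%), with median 0.53 against 0.00. It was Isg15 (log2 fold change 1.81 ± 0.32, adjusted p = 0.0033), and 2 were called without control replicate 1 or BG replicate 6 or 8.

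In B cells most of the other interferon-induced genes tested were called higher. Mature B cells held 286, 442, 335 and 331 CPM in the control mice and 1803, 1401, 2057 and 1150.1 in the BG-treated mice. The BG-treated mice were all higher, as for 2.49% of the 7394 genes tested, with means of 348 ± 66.2 (SD, n = 4) and 1603 ± 405 (SD, n = 4) and a log2 fold change of 2.26 ± 0.17 (SE). B cells with a UMI of Vpreb3, a marker of immature B cells, held 331, 594, 295 and 401 CPM in the control mice and 1952, 1553, 2319 and 1554 in the BG-treated mice. There, too, the groups were apart, as for 2.63% of the 5328 genes tested, with means of 405 ± 133 (SD, n = 4) and 1845 ± 368 (SD, n = 4) and a log2 fold change of 2.24 ± 0.16 (SE). In mature B cells 31 of 35 other interferon-induced genes were called higher (all genes, 1.15%), with median 1.54 against 0.00. Rsad2 led (log2 fold change 3.52 ± 0.38, adjusted p = 7.10e-07), before Ifit3 (log2 fold change 3.18 ± 0.33, adjusted p = 3.76e-07) and Rtp4 (log2 fold change 2.47 ± 0.27, adjusted p = 8.88e-07). In Vpreb3-positive B cells the count was 26 of 29 (all genes, 1.54%), with median 1.61 against 0.00, led by Rtp4 (log2 fold change 3.54 ± 0.33, adjusted p = 5.82e-09), Ifit3 (log2 fold change 3.52 ± 0.36, adjusted p = 3.50e-08) and Oas2 (log2 fold change 3.46 ± 0.47, adjusted p = 4.44e-06). After thinning, the share of mature B cells with an Ifi27l2a UMI was 29.9% ± 4.35 (SD) in control and 75.4% ± 10.8 in BG-treated mice.

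NKT-like cells, T cells that share receptors with NK cells, were the largest class, with 12480 cells. They held 314, 421, 292 and 357 CPM in the control mice and 1773, 1484, 2177 and 1352 in the BG-treated mice. The range of neither group reached the other, as for 4.79% of the 10387 genes tested. Means were 346 ± 56.8 (SD, n = 4) and 1697 ± 366 (SD, n = 4), a log2 fold change of 2.36 ± 0.16 (SE). Other interferon-induced genes were called higher in 35 of 44 cases (all genes, 2.32%), with median 0.98 against -0.01. The largest were Ifi44 (log2 fold change 1.96 ± 0.28, adjusted p = 0.000252), Ifit3 (log2 fold change 1.95 ± 0.19, adjusted p = 7.79e-06) and Oasl2 (log2 fold change 1.93 ± 0.23, adjusted p = 4.05e-05). None of the 44 listed genes tested had a larger log2 fold change than Ifi27l2a. After thinning, 30.5% ± 3.24 (SD) of control and 77.7% ± 6.88 of BG NKT-like cells held a UMI of Ifi27l2a.

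Naive-like T cells, marked by lymph node homing genes and transcription factors of resting T cells, responded in both lineages. Naive-like CD8 T cells held 210.1, 370.5, 278 and 235 CPM in the control mice and 1112, 962, 1261 and 818 in the BG-treated mice. Naive-like CD4 T cells held 514, 737, 471 and 314 CPM in the control mice and 2183, 1328, 2259.5 and 1680.4 in the BG-treated mice. In both, every BG-treated mouse was above every control mouse, as for 2.55% of the 3880 genes tested in the CD8 and 2.35% of the 1617 genes tested in the CD4 class. The log2 fold changes were 1.95 ± 0.14 (SE) and 1.89 ± 0.19 (SE). Of the other interferon-induced genes, 14 of 25 were called higher in naive-like CD8 T cells (all genes, 0.619%), with median 0.88 against 0.00, led by Isg15 (log2 fold change 2.24 ± 0.28, adjusted p = 1.06e-06), Oasl2 (log2 fold change 2.20 ± 0.42, adjusted p = 0.0013) and Irf7 (log2 fold change 1.94 ± 0.34, adjusted p = 0.000392). The count was 9 without BG replicate 7. Control means of Isg15, Oasl2 and Irf7 were 18.7, 6.25 and 16.7 CPM, against 91.8, 29.6 and 69.4 in BG-treated mice. They passed the filter on counts mainly through the BG-treated mice, so the share called follows in part from that filter. In naive-like CD4 T cells 3 of 12 were called (all genes, 0.371%), with median 0.96 against 0.00. They were Bst2 (log2 fold change 1.59 ± 0.22, adjusted p = 8.19e-05), the large ubiquitin ligase gene Rnf213 (log2 fold change 1.46 ± 0.24, adjusted p = 0.00117) and Ifi203 (log2 fold change 0.97 ± 0.18, adjusted p = 0.00483), and 5 were called without control replicate 2 or 4 or BG replicate 8.

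Effector and memory CD8 T cells started lower and less evenly, at 112, 379, 162 and 93.5 CPM in the control mice and 915, 502, 743 and 443 in the BG-treated mice. Control replicate 2 was well above the other control mice, yet the groups did not overlap, as for 3.07% of the 3783 genes tested. Means were 187 ± 131 (SD, n = 4) and 651 ± 218 (SD, n = 4), a log2 fold change of 1.84 ± 0.26 (SE). Other interferon-induced genes called higher were 8 of 23 (all genes, 0.555%), with median 0.62 against -0.00, led by Rtp4 (log2 fold change 2.10 ± 0.29, adjusted p = 4.35e-05), Irf7 (log2 fold change 1.53 ± 0.32, adjusted p = 0.00764) and Xaf1 (log2 fold change 1.49 ± 0.30, adjusted p = 0.00609). Leaving out control replicate 1 gave 4 calls, leaving out BG replicate 7 gave 3 and leaving out BG replicate 8 gave 13. Cycling T and NK cells, found in 3 control mice with enough cells, held 754, 481 and 734 CPM in the control mice and 2094, 1835, 2525 and 1670.1 in the BG-treated mice. Their groups did not overlap, as for 3.08% of the 3050 genes tested, and the log2 fold change was 1.68 ± 0.18 (SE). Among their other interferon-induced genes 1 of 20 was called higher (all genes, 0.131%), with median 0.31 against -0.00. It was Rtp4 (log2 fold change 2.03 ± 0.44, adjusted p = 0.0236). The count was 0 without control replicate 3 or BG replicate 6 or 7, 2 without BG replicate 5 and 3 without control replicate 4 or BG replicate 8.

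Innate lymphocytes stood at the bottom of the lymphoid range. ILC1-like cells, tissue-resident relatives of NK cells, held 9.47, 7.94, 43.0 and 34.7 CPM in the control mice and 129, 88.9, 115 and 95.0 in the BG-treated mice. These values rest on 1 to 8 UMIs in a control mouse and 17 to 23 in a BG-treated mouse. The groups did not overlap, as for 3.16% of the 2626 genes tested, and the log2 fold change was 2.40 ± 0.37 (SE), which was 1.73 without control replicate 1 and 2.88 without control replicate 3. Conventional NK cells held 3.47, 18.5, 0 and 20.6 CPM in the control mice and 93.2, 35.1, 28.0 and 15.7 in the BG-treated mice, from 0 to 4 UMIs in a control mouse and 6 to 20 in a BG-treated mouse. Here the groups overlapped. In a mouse of this class, 3 UMIs, the limit that a count of 0 allows for counting error, amount to 7.86 to 27.7 CPM. A mean of 1.93% of control and 6.04% of BG conventional NK cells had a UMI, at median depths of 1799 to 2538.5 and 2110 to 2938 UMIs per cell, the level against which shares in the other classes are read. In ILC1-like cells 10 of 20 were called higher (all genes, 0.876%), with median 0.91 against 0.00, led by Rtp4 (log2 fold change 2.05 ± 0.34, adjusted p = 0.000737), Xaf1 (log2 fold change 1.79 ± 0.32, adjusted p = 0.00187) and Bst2 (log2 fold change 1.42 ± 0.26, adjusted p = 0.00256), with 6 called without control replicate 1 or 4 and 5 without BG replicate 7. In conventional NK cells 1 of 14 was called (all genes, 1.16%), with median 0.28 against -0.01. It was Bst2 (log2 fold change 1.22 ± 0.31, adjusted p = 0.0293). The count was 2 without control replicate 2 or BG replicate 6 or 8, and 0 without any other single mouse.

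Outside the immune lineages, endothelial cells held 14.3, 96.5, 41.2 and 64.3 CPM in the control mice and 409, 99.5, 217 and 177 in the BG-treated mice. The lowest BG-treated mouse exceeded the highest control mouse by little, and groups did not overlap, as for 1.82% of the 9849 genes tested. Means were 54.1 ± 34.9 (SD, n = 4) and 225 ± 132 (SD, n = 4), a log2 fold change of 2.02 ± 0.43 (SE) that was 1.59 ± 0.35 without BG replicate 5. Although the level of Ifi27l2a was low, 34 of 42 other interferon-induced genes were called higher (all genes, 0.944%), with median 1.25 against -0.01, and the same number without that replicate. Ifit3 (log2 fold change 2.53 ± 0.25, adjusted p = 6.76e-05), Ifit3b (log2 fold change 2.30 ± 0.22, adjusted p = 6.24e-05) and Ifit1 (log2 fold change 2.30 ± 0.19, adjusted p = 2.37e-05), neighbouring genes whose products bind viral RNA, led them. T and NK cell markers in the class summed to 259 to 638 CPM in control and 210.1 to 794 in BG mice, and their part in the Ifi27l2a level was not tested. Bile duct cells held 20.9, 7.74 and 3.50 CPM in the control mice and 61.3, 14.3, 47.5 and 0 in the BG-treated mice, from 0 to 12 UMIs per mouse, and the groups overlapped. Yet 3 of 7 other interferon-induced genes tested there were called higher (all genes, 0.357%), with median 1.31 against -0.00. They were Lgals3bp, a secreted glycoprotein (log2 fold change 1.43 ± 0.27, adjusted p = 0.00936), Bst2 (log2 fold change 1.36 ± 0.26, adjusted p = 0.00936) and Ifitm3, a restriction factor of virus entry (log2 fold change 0.98 ± 0.17, adjusted p = 0.00497). That count was 0 without control replicate 4 or BG replicate 7.

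Over all 16 classes, the listed interferon-induced genes gave 381 gene-by-class tests, of which 194 were called higher and 0 lower, where edgeR called 1.04% of all 66371 gene-by-class tests higher and 0.187% lower. At an unadjusted p under 0.05, 0 were lower and 309 higher. DESeq2, with another filter on counts, made 485 tests of these genes and called 0 lower and 193 higher. In any class, a listed gene with few UMIs in control mice could pass the filter on counts through the BG-treated mice. The shares of listed genes called, and their medians, thus follow in part from that filter. Ifi27l2a had a larger log2 fold change than every listed gene tested in 5 classes. These were neutrophils (6 listed genes tested), ILC1-like cells (20), NKT-like cells (44), naive-like CD4 T cells (12) and cDC1s (14). In NKT-like cells, 19 of all 10387 genes tested had a larger one. The ranking uses the fold changes by which Ifi27l2a was chosen. It was exceeded by 7 of 34 listed genes in classical monocytes and by 8 of 29 in Vpreb3-positive B cells, the highest counts of any class. The plot of fold changes sets it beside the list.

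**Figure D2:**
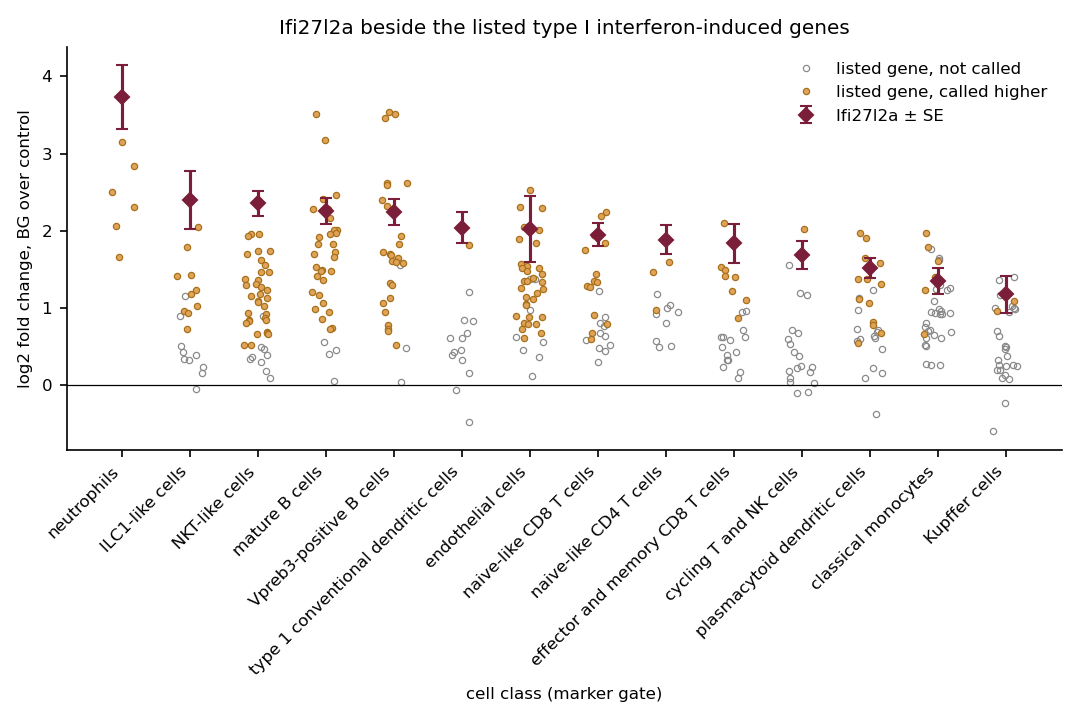
Log2 fold change of BG-treated over control mice in the 14 classes where Ifi27l2a was fitted, ordered by its own value. Diamonds are Ifi27l2a with its standard error, filled circles are listed type I interferon-induced genes called higher and open circles are listed genes not called, and the diamonds run from 3.73 in neutrophils to 1.18 in KCs.

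Some classes were too small for the strict gates, and a gate that gives each cell to its best lineage was added after the cell numbers were seen. With it, non-classical monocytes, which patrol the vessel wall, had a mean of 843 in 3 control and 3230.2 CPM in 4 BG-treated mice (log2 fold change 1.89 ± 0.33). Type 2 conventional dendritic cells, which present antigen to CD4 T cells, had 374 and 1891 (log2 fold change 2.33 ± 0.28). In neither did the groups overlap. Basophils held 27.4 to 143 CPM in control mice and 19.9 to 1037 CPM in BG-treated mice, so that the groups overlapped. By the strict gate, regulatory T cells had enough cells in 2 control mice, with levels of 2107 and 1976 CPM. No cell passed the gate for hepatocytes. With the added gate, endothelial cells had means of 135 and 589 CPM and bile duct cells of 20.0 and 73.8 CPM in control and BG-treated mice, higher than with the strict gate.

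The classes kept much of their order between groups. Among the 16 classes with enough mice, in control mice classical monocytes came first, followed by KCs, cycling T and NK cells and pDCs, and in BG-treated mice neutrophils came first, followed by classical monocytes, cycling T and NK cells and KCs. Endothelial, ILC1-like, bile duct and conventional NK cells filled the last places in both. Neighbours in the order were often not separated. Of the BG-treated mice, 2 of 4 held more in neutrophils than in monocytes and 2 of 4 more in cycling cells than in KCs, whereas 4 of 4 held more in monocytes than in cycling cells and 4 of 4 more in endothelial than in ILC1-like cells. Among control mice, cDC1s exceeded endothelial cells in 4 of 4, but effector and memory CD8 T cells exceeded cDC1s in 1 of 4, although their mean was higher (187 and 181 CPM).

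Level differences between classes of the same mouse were not used to choose the gene and were tested by an exact two-sided sign-flip permutation test over mice, on log2(CPM + 1), with p adjusted over the 7 pairs that had enough mice, of 8 planned. The strongest contrast was between conventional NK and naive-like CD8 T cells, at -5.09 ± 1.50 (SD, n = 8 mice) in log2 units (exact p = 0.00781, adjusted p = 0.0365), with the NK level lower in 8 of 8 mice. This difference ran from -8.13 in the control mouse with 0 UMIs to -3.45. Its size depends on the 1 CPM added to each level, since conventional NK levels rest on 0 to 20 UMIs per mouse. KCs were below classical monocytes in 7 of 7 mice, by 0.86 ± 0.31 (SD, n = 7 mice) (exact p = 0.0156, adjusted p = 0.0365), which is 1.82-fold. Naive-like CD8 T cells exceeded effector and memory CD8 T cells in 7 of 8 mice, by 0.73 ± 0.42 (SD, n = 8 mice) (exact p = 0.0156, adjusted p = 0.0365). The p of the first of these, 0.00781, is the smallest that 8 mice allow. With any 1 mouse left out, the differences ran from -5.33 to -4.66, from -0.95 to -0.80 and from 0.64 to 0.84, in this order. The smallest p is then 0.0156 with 7 mice and 0.0312 with 6, so whether the adjusted p passes with fewer mice says nothing of their stability.

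The other pairs did not pass. Conventional NK cells were below ILC1-like cells in 7 of 8 mice, at -1.57 ± 1.91 (SD, n = 8 mice) (exact p = 0.0312, adjusted p = 0.0547). Control replicate 2 went the other way, and without it the difference was -1.96 (adjusted p = 0.0365). Leaving out the only mouse on the other side forces the smallest p that 7 mice allow, so nothing is read from this pass. The size of the conventional NK and ILC1-like difference also depends on the 1 CPM added. Mature B cells were below Vpreb3-positive B cells in 7 of 8 mice by a smaller amount, -0.20 ± 0.20 (SD, n = 8 mice) (exact p = 0.0391, adjusted p = 0.0547). Naive-like CD4 T cells exceeded NKT-like cells in 6 of 8 mice, with 0.32 ± 0.39 (SD, n = 8 mice) (exact p = 0.0703, adjusted p = 0.082). Classical exceeded non-classical monocytes in 4 of 4 mice, by 1.02 ± 0.74 (SD, n = 4 mice), where 4 mice cannot give a p below 0.125.

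**Figure D3:**
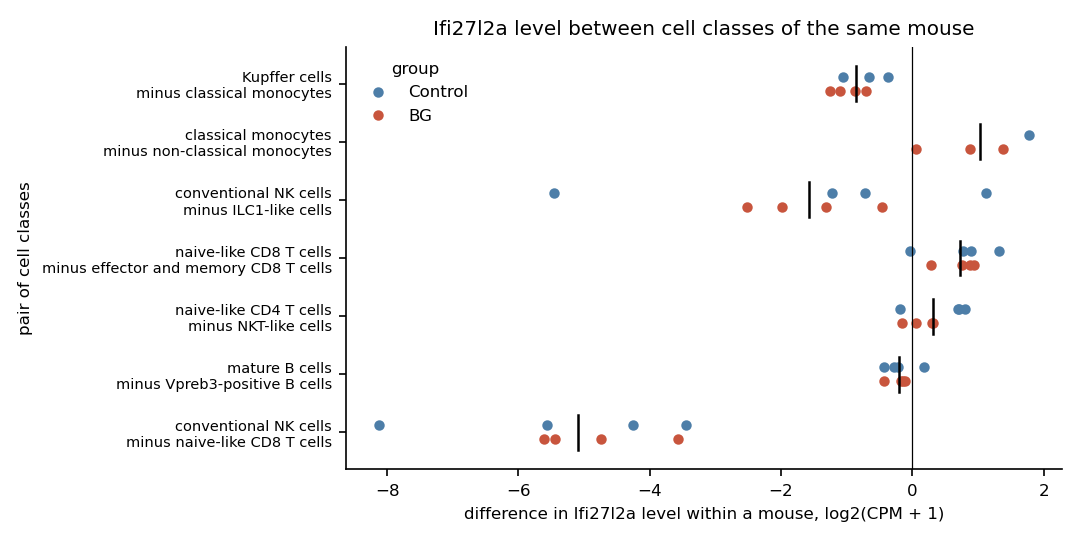
Difference in Ifi27l2a level between classes of the same mouse, in log2(CPM + 1), for the 7 pairs tested. Points are mice (control blue, BG red), black lines are means over mice, and the conventional NK level lies below the naive-like CD8 T cell level in 8 of 8 mice.

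Whether cells that held Ifi27l2a RNA also held more RNA of other interferon-induced genes was asked within each mouse and class, so that the difference between groups did not enter. Each cell was thinned to 1500 UMIs, and the mean summed UMIs of the 47-gene list were compared between cells with and without an Ifi27l2a UMI (exact two-sided sign-flip permutation test over mice, adjusted over 9 classes). The list was higher in cells with Ifi27l2a in 6 of 9 classes. In naive-like CD4 T cells the log2 ratio was 0.53 ± 0.21 (SD, n = 6 mice) (adjusted p = 0.0469), above 0 in 6 of 6 mice. With any 1 mouse left out the ratio was 0.48 to 0.58, and 5 mice cannot give a p below 0.0625. In naive-like CD8 T cells it was 0.46 ± 0.26 (SD, n = 8 mice) (adjusted p = 0.0141), above 0 in 8 of 8. The ratios also exceeded 0 in 8 of 8 mice in mature B cells (0.34 ± 0.08 (SD, n = 8 mice), adjusted p = 0.0141) and Vpreb3-positive B cells (0.32 ± 0.14 (SD, n = 8 mice), adjusted p = 0.0141).

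NKT-like cells had 0.23 ± 0.13 (SD, n = 8 mice) (adjusted p = 0.0141) and pDCs 0.16 ± 0.07 (SD, n = 8 mice) (adjusted p = 0.0141), both above 0 in 8 of 8 mice. Control and BG means were 0.31 and 0.14 in NKT-like cells and 0.20 and 0.12 in pDCs. For pDCs the pass was lost when cells were thinned to 1000 UMIs (0.061, adjusted p = 0.0625). As a count, thinned mature B cells with Ifi27l2a held a mean of 6.53 UMIs of the list and those without it 5.14. Oxidative phosphorylation genes, taken as a reference list from the same cells, differed less in these classes, from 0.01 ± 0.02 in NKT-like cells to 0.10 ± 0.07 in Vpreb3-positive B cells, and passed in none of the 9 classes (lowest adjusted p = 0.0703). At an unadjusted p under 0.05 they passed in 3. In Vpreb3-positive B cells they were higher in 8 of 8 mice (exact sign-flip p = 0.00781 before adjustment). The interferon list had the same unadjusted p there, with a larger ratio (0.32 against 0.10).

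In the remaining 3 classes the test did not pass. Cycling T and NK cells had a log2 ratio of 0.49 ± 0.53 (SD, n = 7 mice) (adjusted p = 0.0804), above 0 in 6 of 7 mice. It passed at 1000 UMIs per cell (0.50, adjusted p = 0.0391). It also passed without BG replicate 6, the mouse below 0 (adjusted p = 0.0469), but leaving out that mouse forces the smallest p that the others allow, so nothing is read from it. Effector and memory CD8 T cells had 0.34 ± 0.53 (SD, n = 7 mice) (adjusted p = 0.125), with 1 control mouse at 1.42. Their means were 0.79 in control and 0.01 in BG-treated mice. Endothelial cells had -0.14 ± 0.17 (SD, n = 7 mice) (adjusted p = 0.105), above 0 in 2 of 7 mice, and at 1000 UMIs per cell the ratio was -0.21 (adjusted p = 0.026). There the oxidative phosphorylation list was higher in cells with Ifi27l2a in 7 of 7 mice (0.14 ± 0.07, adjusted p = 0.0703).

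**Figure D4:**
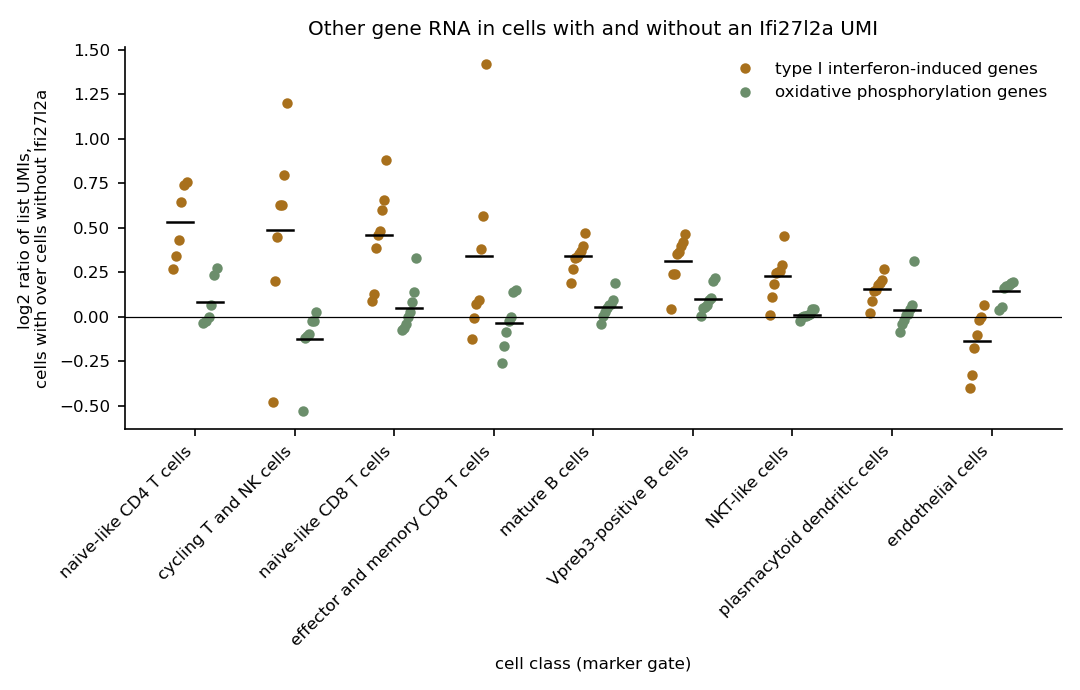
Log2 ratio of the summed UMIs of the interferon-induced and oxidative phosphorylation lists in cells with over cells without an Ifi27l2a UMI, each cell thinned to 1500 UMIs, in 9 classes ordered by the mean of the interferon list. Points are mice and bars are means, and the interferon-induced genes lie above 0 in every mouse of the 6 classes that passed.

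The RNA of type I interferons themselves was scarcely captured. The 12 interferon-α genes listed had 0 UMIs in kept cells, Ifnab had 0 in control and 1 in BG cells and Ifnb1 had 3 and 5, which limits what can be said of the ligand at this depth. Ifng, the type II interferon, had 15600 and 12322 UMIs, was highest in ILC1-like cells and was called in 0 of 6 classes by edgeR and 0 by DESeq2, with 3 lower at an unadjusted p under 0.05. The receptors and kinases (Ifnar1, Ifnar2, Ifngr1, Ifngr2, Il10rb, Jak1, Jak2 and Tyk2) were called higher in 0 and lower in 0 of 90 gene-by-class tests by edgeR. At an unadjusted p under 0.05, 1 was higher and 5 were lower, and DESeq2 called 0 and 0. Of all gene-by-class tests, edgeR called 1.04% higher and 0.187% lower, so 0 calls do not set Ifng or these genes apart from other genes. Log2 fold changes of Ifnar1 ran from -0.28 to 0.23 and those of Ifnar2 from -0.43 to 0.16. Conventional NK cells held 60.7 CPM of Ifnar1, beside 61.9 in NKT-like cells, and 58.5 of Ifnar2, beside 68.3.

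Of the transcription factors of the pathway, Irf7, also on the list of induced genes, was called higher in 9 of 13 classes. Irf9 was called higher in 4 of 14 and Stat2 in 3 of 8, where 1.04% of all gene-by-class tests were called higher. Log2 fold changes ran from -0.50 to 0.49 for Irf1, from -0.48 to 0.40 for Irf2 and from -0.35 to 0.22 for Irf3, with a lowest adjusted p of 0.141 by edgeR. The highest log2 fold change of Irf7 was 2.32 ± 0.26 in Vpreb3-positive B cells (adjusted p = 2.01e-07), where that of Ifi27l2a was 2.24. Irf7 was also above Ifi27l2a in endothelial cells (2.05 and 2.02) and classical monocytes (1.40 and 1.35), with no test of the difference. The highest values of the others named here were 1.17 for Stat2 (adjusted p = 0.00038) in endothelial cells and 1.02 for Irf9 (adjusted p = 1.34e-05) in mature B cells. Both were below that of Ifi27l2a in the same class.

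Genes whose levels were most like Ifi27l2a over 125 class-by-mouse sums of 16 classes (Pearson r of log2(CPM + 1), among 5903 genes with a mean of at least 20 CPM) were the interleukin-6 receptor gene Il6ra (r = 0.68), the sorting nexin gene Snx20 (0.67), Samhd1, a nucleotide hydrolase that restricts viruses (0.65), Ctss (0.64) and Slfn2 (0.64). The points share libraries and mice, so r is a description. In classical monocytes Il6ra stood at 239 CPM in control and 216 in BG-treated mice, and in conventional NK cells at 0 and 0.655. Ctss stood at 1215 and 1483 in monocytes and at 31.9 and 28.7 in conventional NK cells. Both were high in monocytes and low in conventional NK cells, like Ifi27l2a.

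By the size of the change across classes, over 14 classes and 213 genes tested in all of them, the most similar were Rps9 (r = 0.78), Cdk2ap2 (0.75), Rac2 (0.72), AY036118 (0.71) and Ubb (0.69). None of these was called higher in a class, and the log2 fold changes of Rps9, a ribosomal protein gene, ran only from -0.38 to 0.15. With 14 points that share mice, and the neutrophil value far above the others, no more is read from these r.

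No neighbouring gene was called in the same direction in more than 1 class. Of all gene-by-class tests, 1.04% were called higher and 0.187% lower. Of the 5 nearest genes on each side, Asb2, Otub2, Ddx24, Ifi27 and Ifi27l2b were tested in at least 1 class, and Gm15523, Gm47267, Ppp4r4, Serpina10 and Serpina6 in none. Ifi27, whose gene ends 1928 bases from Ifi27l2a, was tested in 12 classes and went up in 1, bile duct cells (log2 fold change 0.75 ± 0.17, adjusted p = 0.0428), and down in 1, naive-like CD8 T cells (-0.65 ± 0.17, adjusted p = 0.0492). DESeq2 made 0 calls for Ifi27 and Ifi27l2b. In all kept cells it stood at 108 CPM in control and 109 in BG cells pooled over mice, and it was highest in bile duct cells, where Ifi27l2a was lowest in BG-treated mice. Ifi27l2b was tested only in bile duct cells (0.21 ± 0.33, adjusted p = 0.972). Ddx24, an RNA helicase gene, was called in 1 of 15 classes, endothelial cells (0.56 ± 0.12, adjusted p = 0.0309), and Asb2, of a ubiquitin ligase, in 1 of 4, ILC1-like cells (0.78 ± 0.19, adjusted p = 0.0281). The RefSeq model of Ifi27l2a is longer than that of GENCODE and spans Ifi27 on the other strand.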

How the data were processed

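The authors deposited 1 matrix of raw UMI counts per gene and barcode for each of 8 libraries (4 control, 4 BG), made with 10x Genomics 3′ chemistry. Per the file headers, Cell Ranger 6.1.2 wrote them. Reads had been aligned to mm10 with introns included, so unspliced RNA is counted too. The annotation release is not given in the sources used here.

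Cells with 200 to 2500 genes and at most 30% mitochondrial UMIs were kept, the limits of the study's methods. Classes were set by marker gates, with at least 2 distinct markers of a lineage. Counts were summed per mouse and class (at least 10 cells per mouse, 3 mice per group), filtered by filterByExpr, normalized by TMM and tested by edgeR's quasi-likelihood F test with Benjamini-Hochberg adjustment, a procedure tested on simulated data. Calls required an adjusted p under 0.05 and an absolute log2 fold change above 0.5. Comparisons within mice used exact sign-flip permutation tests. P-values measure the spread between mice, and floors cover counting error only.

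The genes named were Ifi27l2a, the 5 called higher in most classes after it, the 5 most like it in level and the 5 most like it in fold change, the ISG12 family, the 5 nearest on each side and, per class, the 3 listed interferon-induced genes with the largest called change. Interferon-induced genes on the list numbered 47, of which 45 were found by symbol. A further gene of the pathway is not reported here. Ifi27l2a, the lists and the tests were chosen with earlier results of these data known.

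Alternatives were a gate of 3 markers, at most 10% mitochondrial UMIs, no upper limit on genes, no TMM factors, DESeq2, no filter on low counts, a pseudocount of 10 in place of 1 CPM, thinning to 1000 in place of 1500 UMIs, leaving out each mouse and, chosen after seeing the cell numbers, a relaxed gate. Tools were R 4.3.3 with edgeR 4.0.16, limma 3.58.1 and DESeq2 1.42.0, and Python 3.11.15 with numpy 2.4.6, scipy 1.17.1, pandas 2.3.3 and matplotlib 3.10.9.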

Additional observations from a re-analysis of the deposited data

Results flagged for a closer look

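In plasmacytoid dendritic cells, BG replicate 7 held Ifi27l2a at 2110.0 CPM and lay far above the other BG-treated mice, at 1438, 1465 and 1515 CPM, with a gap of 0.885 of the group's whole range. It was the only such sample among 29 groups of 4 mice examined, and chance flags about 1 in 20 groups. Without this mouse the log2 fold change was 1.34, against 1.52 with it.

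Barcodes with fewer than 200 genes, which no comparison between groups used, also held Ifi27l2a. Their level was 833 ± 291 CPM of non-mitochondrial UMIs (SD, n = 4) in BG libraries, above the 189 ± 90.2 CPM (SD, n = 4) of control libraries.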

How the results depend on the processing

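Ifi27l2a kept its direction in every class under every alternative that could be fitted. Leaving out 1 mouse cannot make groups overlap that were apart, so only the size of the change is read there. Without 1 mouse the log2 fold change ran from 0.96 to 1.41 in KCs and from 3.30 to 4.48 in neutrophils. With at most 10% mitochondrial UMIs, 4 classes could be fitted and in 2 of them the groups did not overlap. With no upper limit on genes the log2 fold change in cDC1s was 1.76, against 2.04.

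The count of other interferon-induced genes called higher in KCs was 2, ran from 0 to 4 without 1 mouse and was 7 with the relaxed gate. In classical monocytes it was 6, ran from 0 to 6 without 1 mouse and was 10 with the gate of 3 markers, 1 with at most 10% mitochondrial UMIs, 1 with no upper limit on genes, 23 with the relaxed gate and 16 with no filter on low counts. In conventional NK cells it was 1, ran from 0 to 2 without 1 mouse and was 2 with the gate of 3 markers, 2 with no upper limit, 2 with the relaxed gate, 3 with no filter, and 0 with at most 10% mitochondrial UMIs, without TMM factors and by DESeq2. In endothelial cells it was 34, and 21 with at most 10% mitochondrial UMIs. Without 1 mouse it ran from 31 to 36 there, from 32 to 35 in mature B cells and from 33 to 38 in NKT-like cells. The cause was not tested.

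Without 1 mouse, the KC and monocyte difference ran from -0.95 to -0.80, the naive-like and effector CD8 difference from 0.64 to 0.84, the conventional NK and naive-like CD8 difference from -5.33 to -4.66 and the conventional NK and ILC1-like difference from -1.96 to -1.02. With at most 10% mitochondrial UMIs, 6 mice remained for the CD8 difference (0.58) and the conventional NK and naive-like CD8 difference (-5.97), and neither passed. With the relaxed gate the conventional NK and ILC1-like difference passed at -1.52. Co-detection passed in 6 classes, in 5 to 6 without 1 mouse, and in 1 of 1 class with at most 10% mitochondrial UMIs. At 1000 UMIs it passed in 7 classes, of which endothelial cells had the lower ratio. No paired analysis was possible because the groups share no replicate numbers. Depth limits neutrophils, with 11 to 28 cells per mouse, and conventional NK cells, with 0 to 20 UMIs of the gene per mouse.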
